A study of Caenorhabditis elegans with 12 samples.

Results

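The proteasome subunit genes of *C. elegans* were taken as every locus whose symbol in the count table, split at commas, held a name starting with *pas-*, *pbs-*, *rpn-* or *rpt-* and a number. This rule found 32 of 41420 listed loci, and all 32 were among the 15403 loci with enough counts to be tested. The core particle had 14 of them, 7 of the alpha ring (*pas-1* to *pas-7*) and 7 of the beta ring (*pbs-1* to *pbs-7*). The regulatory particle had 18, 6 ATPases (*rpt-1* to *rpt-6*) and 12 other subunits (*rpn* genes), 9 of which belong to the lid. The symbols fit these classes by name only, and the rule used no measured value. The ubiquitin receptor gene *rpn-13* is listed in the table under its sequence name, so it was outside the rule.

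The proteasome is the protease that destroys proteins marked with ubiquitin chains. Its core particle is a barrel of stacked rings, in which beta subunits cut proteins in a closed chamber and alpha subunits form the gate. The regulatory particle sits on the end of the barrel, where it binds the ubiquitin chain, removes it, and uses a ring of ATPases to unfold the protein and thread it through the gate. To destroy proteins marked with ubiquitin both particles work together, and the subunits of each are built into a complex. In worms the proteasome is needed in all tissues, and high salt damages proteins by drawing water out of the animal. The values below compare the messages of core and regulatory subunits between salt concentrations and strains.

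Worms were moved at the late L4 stage, the last larval stage, to agar with 51 mM NaCl (control) or 200 mM NaCl (hypertonic). RNA was measured in whole worms after 6 h there. The study reports no sign of molting or of gravid adults at that time. The wild type strain N2 Bristol had 2 samples at each concentration. The strain VC1262, which carries the deletion allele *osm-9(ok1677)*, had 4 samples at each concentration. The gene *osm-9* encodes a channel of sensory neurons that include ASH, the neurons with which worms detect and avoid strong salt. The study describes a slight developmental delay in the mutant, which its staging took into account. With 1 mutant strain, the allele and the rest of that strain's background cannot be told apart. The samples came from independent experiments, according to the study's methods.

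Total counts per sample ranged from 15949889 to 21418277, and 3 counts, taken as the floor of detection, equalled 0.137 to 0.186 CPM, the count scaled to a common library size. Every proteasome locus was far above this floor, with 1624 to 7689 counts in a sample. Levels are given as CPM of libraries scaled by TMM factors, a scaling that sets most loci equal between samples. The *osm-9* locus itself read 0.719 to 1.82 CPM in the N2 libraries and 1.31 to 2.60 CPM in the libraries labelled *osm-9(ok1677)*. It was not lower in the latter, and it was called higher at 51 mM NaCl (log2 fold change 1.37, SE 0.35, adjusted p = 0.0299, edgeR). The counts cover the whole locus and do not show the deleted stretch, so the strain of a library rests on its label. Directions below are given for libraries by those labels. Bulk samples cannot tell apart fewer cells of a type and less RNA per cell.

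The 32 subunit loci, 3 of which also name a further gene, were all well expressed and lay within a narrow band. Their mean levels over the 12 libraries ran from 100.4 CPM for *rpn-12*, a lid subunit, to 345 CPM for *rpn-1*, a scaffold of the base of the regulatory particle. Together they took between 0.507% and 0.627% of all counts in a library. Their summed level was 5331 to 6247 CPM, a range of 1.17-fold over the 12 libraries. For single genes the highest library exceeded the lowest by 1.14-fold (*rpn-10*) to 1.60-fold (*pbs-1*), and 30 of 32 stayed under 1.5-fold. The genes lie on chromosomes I (10 genes), II (7), III (7), IV (3) and V (5).

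**Figure D1:**
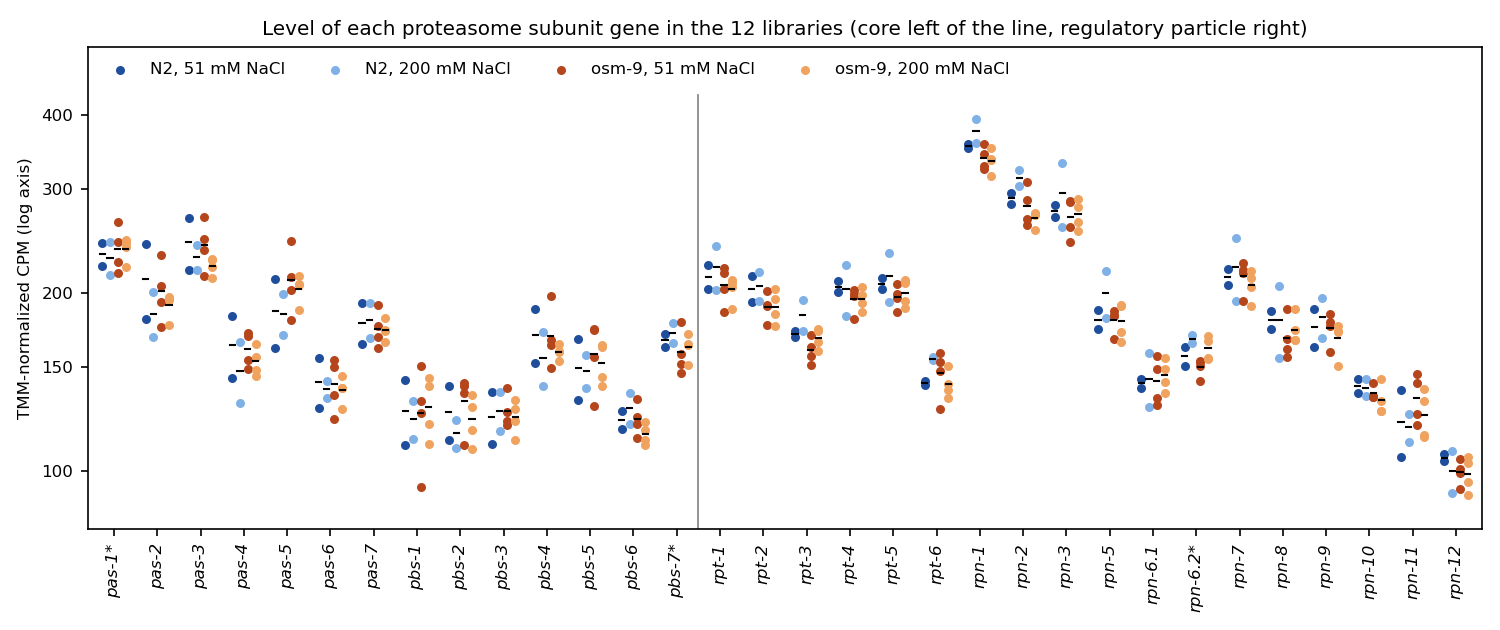
Level of each proteasome subunit gene in each of the 12 libraries (points, TMM-normalized CPM on a log axis), with the mean of each group as a short line. The 14 core genes are left of the grey line and the 18 regulatory particle genes right of it. An asterisk marks the 3 loci that name a second gene. The colours overlap for nearly every gene, and *rpn-1* is the highest and *rpn-12* the lowest.

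Longer genes collect more reads, so levels of different genes were compared per kilobase of exon. This was done for the 29 loci that name a single gene. *pas-1* shares its locus with *dhs-22*, *pbs-7* with *K07A12.5*, and *rpn-6.2* with *F59B2.2* and *F59B2.3*, and reads of these loci cannot be divided between the genes. Per length the core genes stood above most regulatory genes, with a median of 165 CPM per kb (range 124 to 261, 12 genes) against 117 CPM per kb (range 86.9 to 148, 17 genes). The alpha ring led with a median of 206 CPM per kb, followed by the beta ring with 146, the ATPases with 134 and the other regulatory subunits with 109. The gate-forming alpha subunits *pas-3* (261 CPM per kb), *pas-2* (234) and *pas-5* (233) were the highest of all, and the beta subunit *pbs-4* (204) came next. The lowest were *rpn-6.1* with 86.9 and *rpn-2* with 89.4 CPM per kb. Neighbours in this order overlapped in their ranges over the 12 libraries. The core genes are also the shorter ones, with 801 to 1059 bases of exon against 855 to 3171 in the regulatory particle, and the part of length in this difference was not tested.

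**Figure D2:**
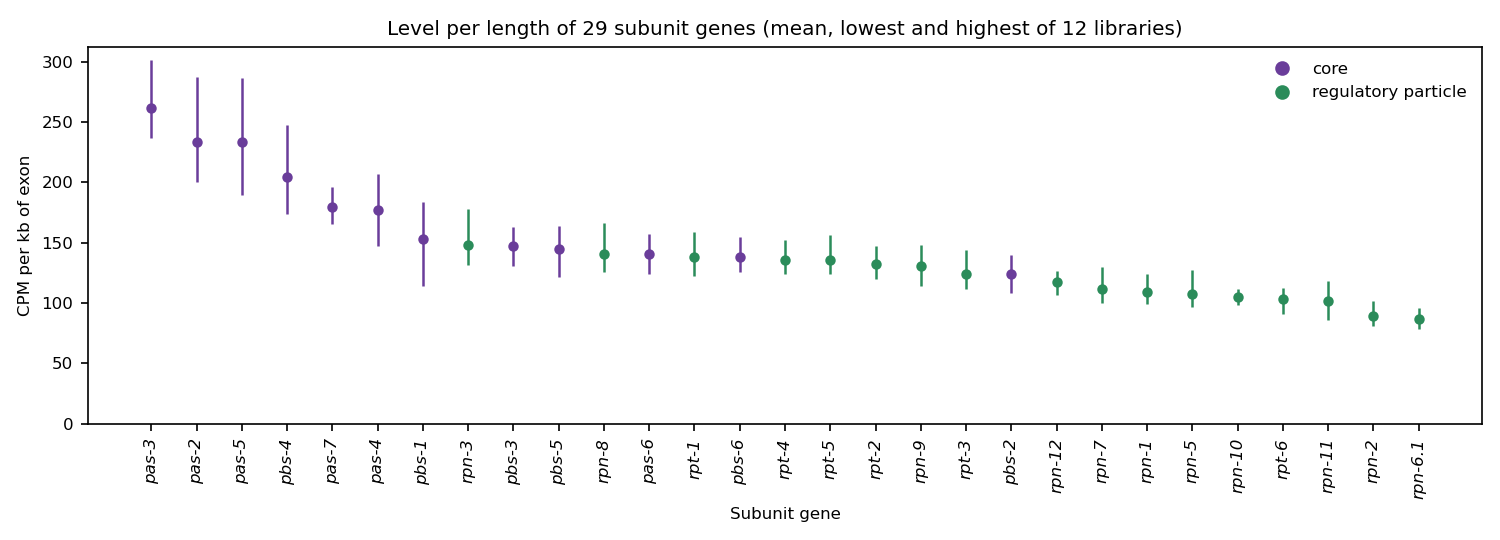
Level per kilobase of exon of the 29 subunit genes whose locus names no second gene, ordered from high to low. Points are the mean of 12 libraries and bars run from the lowest to the highest library. The highest 7 genes belong to the core, and *pbs-2* is the core gene with the lowest value (124 CPM per kb).

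The 6 ATPases, which sit together in a ring that unfolds proteins, had the narrowest range of the 4 classes. Their levels per kb ran only from 103 (*rpt-6*) to 138 (*rpt-1*), 1.34-fold from lowest to highest, whereas the alpha subunits spanned 1.86-fold and the beta subunits 1.65-fold.

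The beta subunits *pbs-1*, *pbs-2* and *pbs-5* carry the active sites of the core, named in other species for their caspase-like, trypsin-like and chymotrypsin-like cutting. *pbs-1* lies on chromosome IV from 1708814 to 1709745, *pbs-2* on chromosome I from 12967216 to 12968280, and *pbs-5* on chromosome I from 14719167 to 14720477, all on the minus strand of WBcel235. The level of *pbs-1* was 142 and 111 CPM in N2 at 51 mM, 113 and 131 at 200 mM, 94.0, 125, 132 and 151 in the mutant at 51 mM, and 111, 143, 120 and 139 at 200 mM. It was the most variable of the 32 genes, and its groups overlapped throughout. *pbs-2*, the trypsin-like subunit, read 139 and 113 CPM in N2 at 51 mM, 110 and 122 at 200 mM, 111, 141, 135 and 139 in the mutant at 51 mM, and 109, 135, 117 and 128 at 200 mM. *pbs-5*, the chymotrypsin-like subunit, read 167 and 132 CPM in N2 at 51 mM, 138 and 157 at 200 mM, 129, 174, 156 and 173 in the mutant at 51 mM, and 139, 162, 144 and 163 at 200 mM. In all 3 genes replicate 1 of the mutant was the lowest library of its group at both concentrations.

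Among the alpha subunits, *pas-5* read 211 and 162 CPM in N2 at 51 mM, 199 and 170 at 200 mM, 202, 213, 180 and 245 in the mutant at 51 mM, and 207, 206, 187 and 213 at 200 mM. *pas-2* read 242 and 181 CPM in N2 at 51 mM, 200.4 and 169 at 200 mM, 193, 205, 175 and 231 in the mutant at 51 mM, and 195, 195, 176 and 197 at 200 mM. For both genes the 2 N2 libraries at 51 mM differed by more than the means of any 2 groups did. *pas-4* read 183 and 144 CPM in N2 at 51 mM, 165 and 130.2 at 200 mM, 154, 171, 149 and 169 in the mutant at 51 mM, and 156, 164, 145 and 148 at 200 mM. *pas-3* read 268 and 219 CPM in N2 at 51 mM, 241 and 218 at 200 mM, 236, 247, 214 and 269 in the mutant at 51 mM, and 229, 227, 211 and 221 at 200 mM. The highest 2 libraries of *pas-3* were both at 51 mM, 1 in each strain. The other core genes *pas-1*, *pas-6*, *pas-7*, *pbs-3*, *pbs-4*, *pbs-6* and *pbs-7* had mean levels from 121 to 235.0 CPM.

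In the regulatory particle, the ATPase gene *rpt-2* read 213 and 193 CPM in N2 at 51 mM, 217 and 193 at 200 mM, 190, 190.5, 176 and 202 in the mutant at 51 mM, and 195, 203, 176 and 184 at 200 mM. *rpt-3* read 172 and 168 CPM in N2 at 51 mM, 194 and 173 at 200 mM, 157, 162, 151 and 170 in the mutant at 51 mM, and 172, 174, 160 and 165 at 200 mM. Both N2 libraries at 200 mM were above both at 51 mM for *rpt-3*, by less than 1 CPM at the closest. *rpt-6* read 142 and 139.8 CPM in N2 at 51 mM, 156 and 154 at 200 mM, 127, 158, 148 and 153 in the mutant at 51 mM, and 133, 151, 140.2 and 137 at 200 mM. For *rpt-6* the N2 libraries at 200 mM lay above the other N2 libraries and above all 4 mutant libraries at 200 mM. The remaining ATPase genes *rpt-1*, *rpt-4* and *rpt-5* had means from 198 to 209 CPM.

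The scaffold genes *rpn-1* and *rpn-2* hold the base of the regulatory particle together and had the highest CPM. *rpn-1* (chromosome IV, 6906420 to 6909913) read 357 and 351 CPM in N2 at 51 mM, 393 and 358 at 200 mM, 327, 357, 323 and 342 in the mutant at 51 mM, and 336, 351, 315 and 335 at 200 mM. *rpn-2* (chromosome III, 6199184 to 6202594) read 295 and 283 CPM in N2 at 51 mM, 323 and 302 at 200 mM, 261, 308, 267 and 287 in the mutant at 51 mM, and 271, 272, 255 and 273 at 200 mM. In both genes the 2 N2 libraries at 200 mM were above the other 2 N2 libraries and above the 4 mutant libraries at 200 mM.

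The ubiquitin receptor gene *rpn-10* (chromosome I, 10730712 to 10732424) was the steadiest by the ratio of its highest to its lowest library. It read 143 and 136 CPM in N2 at 51 mM, 143 and 134 at 200 mM, 134, 141, 134 and 133 in the mutant at 51 mM, and 131, 143, 126 and 126 at 200 mM. *rpn-11* (chromosome II, 4043055 to 4044546), which encodes the enzyme of the lid that removes the ubiquitin chain, read 137 and 106 CPM in N2 at 51 mM, 125 and 112 at 200 mM, 119.7, 146, 125 and 141 in the mutant at 51 mM, and 114, 138, 114.9 and 132 at 200 mM. It varied more than any other regulatory gene, and all its groups overlapped. *rpn-5*, a lid scaffold gene, read 187 and 174 CPM in N2 at 51 mM, 218 and 182 at 200 mM, 183, 184, 167 and 186 in the mutant at 51 mM, and 191, 190.2, 165 and 172 at 200 mM. *rpn-8*, the partner of *rpn-11* in the lid, read 187 and 174 CPM in N2 at 51 mM, 205 and 155 at 200 mM, 188, 161, 156 and 167 in the mutant at 51 mM, and 188, 173, 166 and 166 at 200 mM. For *rpn-5* and *rpn-8* replicate 1 of N2 at 200 mM was the highest of the 12 libraries.

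The paralogs *rpn-6.1* and *rpn-6.2* encode versions of the lid subunit that clamps the regulatory particle to the core, and raised *rpn-6.1* is known to increase proteasome activity in worms. *rpn-6.1* (chromosome III, 6959110 to 6962001) read 143 and 138 CPM in N2 at 51 mM, 158 and 128 at 200 mM, 149, 129.6, 133 and 156 in the mutant at 51 mM, and 155, 148, 136 and 141 at 200 mM. The locus of *rpn-6.2* (chromosome III, 8999817 to 9001999) read 151 and 162 CPM in N2 at 51 mM, 170.1 and 164 at 200 mM, 153, 153, 151 and 142 in the mutant at 51 mM, and 166, 169, 155 and 155 at 200 mM. The 200 mM libraries of the *rpn-6.2* locus lay above the 51 mM libraries in both strains, and the values include reads of *F59B2.2* and *F59B2.3*. The remaining genes *rpn-3*, *rpn-7*, *rpn-9* and *rpn-12*, all of the lid, had means between 100.4 and 275 CPM.

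Between the mutant and N2 at 51 mM NaCl no subunit gene passed the test. The count was 0 of 32 higher and 0 of 32 lower in the edgeR quasi-likelihood test with Benjamini-Hochberg adjustment at 0.05, while 7.64% of all tested loci were called higher and 4.63% lower. At an unadjusted p of 0.05 the count was also 0 of 32, against 29.1% of loci, and 0 with DESeq2. In 0 of the 32 genes were the N2 and the mutant libraries free of overlap, against 35.3% of loci. Log2 fold changes ran from -0.10 to 0.17, with a median of -0.018, against a median of 0.045 over all loci. The sign of so small a median turned with the filter on low counts, since requiring 10 counts in every sample gave 0.013. The 2 highest were *pas-5* (0.17, SE 0.15, smallest adjusted p of the 32 at 0.478) and *rpn-11* (0.13, SE 0.14), and the 2 lowest were *rpn-8* and *rpt-2* (each -0.10). The 95% intervals of the 32 fold changes, taken gene by gene, ran from 0.750-fold at the lowest to 1.41-fold at the highest. Smaller changes of single genes inside their intervals were not resolved with 2 N2 libraries.

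At 200 mM NaCl the strain comparison again called 0 of 32 higher and 0 of 32 lower (edgeR quasi-likelihood test), where 4.13% of loci were higher and 2.3% lower. 1 gene, *rpn-2*, was lower at an unadjusted p of 0.05, against 23.9% of loci in either direction, and DESeq2 found 2 such genes and 0 after adjustment. The log2 fold change of *rpn-2* was -0.22 (SE 0.10, 95% interval 0.738-fold to 0.993-fold, adjusted p = 0.188), followed by *rpn-1* with -0.17 (SE 0.09, adjusted p = 0.306). The highest were *pas-5* (0.14) and *pbs-2* (0.08), both of the core. All 6 ATPase genes had values below 0, between -0.14 (*rpt-6*) and -0.05 (*rpt-4*), and so had 16 of 18 regulatory genes, against 6 of 14 core genes. The groups did not overlap for 3 genes, *rpt-6*, *rpn-1* and *rpn-2*, while 34.3% of loci did not overlap. The medians were -0.11 for the regulatory particle, 0.038 for the core and 0.053 for all loci. Replicate 1 of N2 decided much of this, because without it the regulatory median was -0.0030 and without replicate 2 it was -0.28, with 9 genes then lower at an unadjusted p of 0.05. The core median turned to -0.15 without replicate 2 of N2 at 200 mM, and to -0.026 without a filter on low counts.

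In N2, 200 against 51 mM NaCl called 0 of 32 higher and 0 of 32 lower (edgeR quasi-likelihood test), beside 0.0844% and 0.11% of loci. The unadjusted count was 0 against 4.96%, and DESeq2 also gave 0 at either threshold. Of the regulatory genes 13 of 18 had values above 0 (median 0.053) and of the core genes 10 of 14 had values below 0 (median -0.030), with 0.016 over all loci. The highest were *rpn-5* (0.15) and *rpt-6* (0.14) and the lowest *pas-2* (-0.20) and *pas-4* (-0.14), each with an SE between 0.12 and 0.17. The 5 genes whose libraries did not overlap between the concentrations, *rpt-3*, *rpt-6*, *rpn-1*, *rpn-2* and the locus of *rpn-6.2*, were all of the regulatory particle and all higher at 200 mM, but 26.9% of loci did not overlap either. With 2 libraries against 2, the 95% intervals ran from 0.678-fold to 1.35-fold. Without replicate 1 at 51 mM the core median was 0.095 and 31 of 32 genes had values above 0, and without replicate 1 at 200 mM the regulatory median was -0.073. Between the libraries numbered 1, 4 core and 16 regulatory genes had values above 0, and between those numbered 2, 9 and 9 did.

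In the mutant, with 4 libraries against 4, the salt comparison called 0 of 32 higher and 0 of 32 lower (edgeR quasi-likelihood test), beside 0.221% and 0.13% of loci. The unadjusted count was 0 against 5.57%, and DESeq2 gave 0 at either threshold. This was the tightest of the comparisons, with 95% intervals from 0.784-fold to 1.29-fold. All 7 alpha subunit genes had values below 0, from -0.12 for *pas-3* (SE 0.10) to -0.0015 for *pas-1*, and 12 of 14 core genes did. Between same-numbered libraries this direction was not shared, since 10, 4, 7 and 0 of the 14 core genes had values above 0 in pairs 1 to 4, with core medians of 0.026, -0.065, -0.0027 and -0.14. Without replicate 4 at 51 mM the core median was -0.0011. The medians were -0.050 for the core, -0.0061 for the regulatory particle and -0.0088 for all loci. The lowest values were those of *pas-3* and *pbs-2* (-0.11) and the highest those of the *rpn-6.2* locus (0.11, SE 0.07, adjusted p = 0.9999, edgeR) and *rpt-3* (0.07). The *rpn-6.2* locus was the 1 member whose groups did not overlap, against 3.97% of loci.

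The difference between the strains in the salt response was tested as an interaction, and 0 of 32 genes were called in either direction (edgeR quasi-likelihood test), beside 0.00649% of loci higher and 0% lower. The unadjusted count was 0 against 1.8%, and DESeq2 gave 0. The differences ran from -0.20 to 0.12 on the log2 scale, and their 95% intervals from 0.692-fold to 1.57-fold. These 5 comparisons use the same 12 libraries, so they are not independent of each other.

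**Figure D3:**
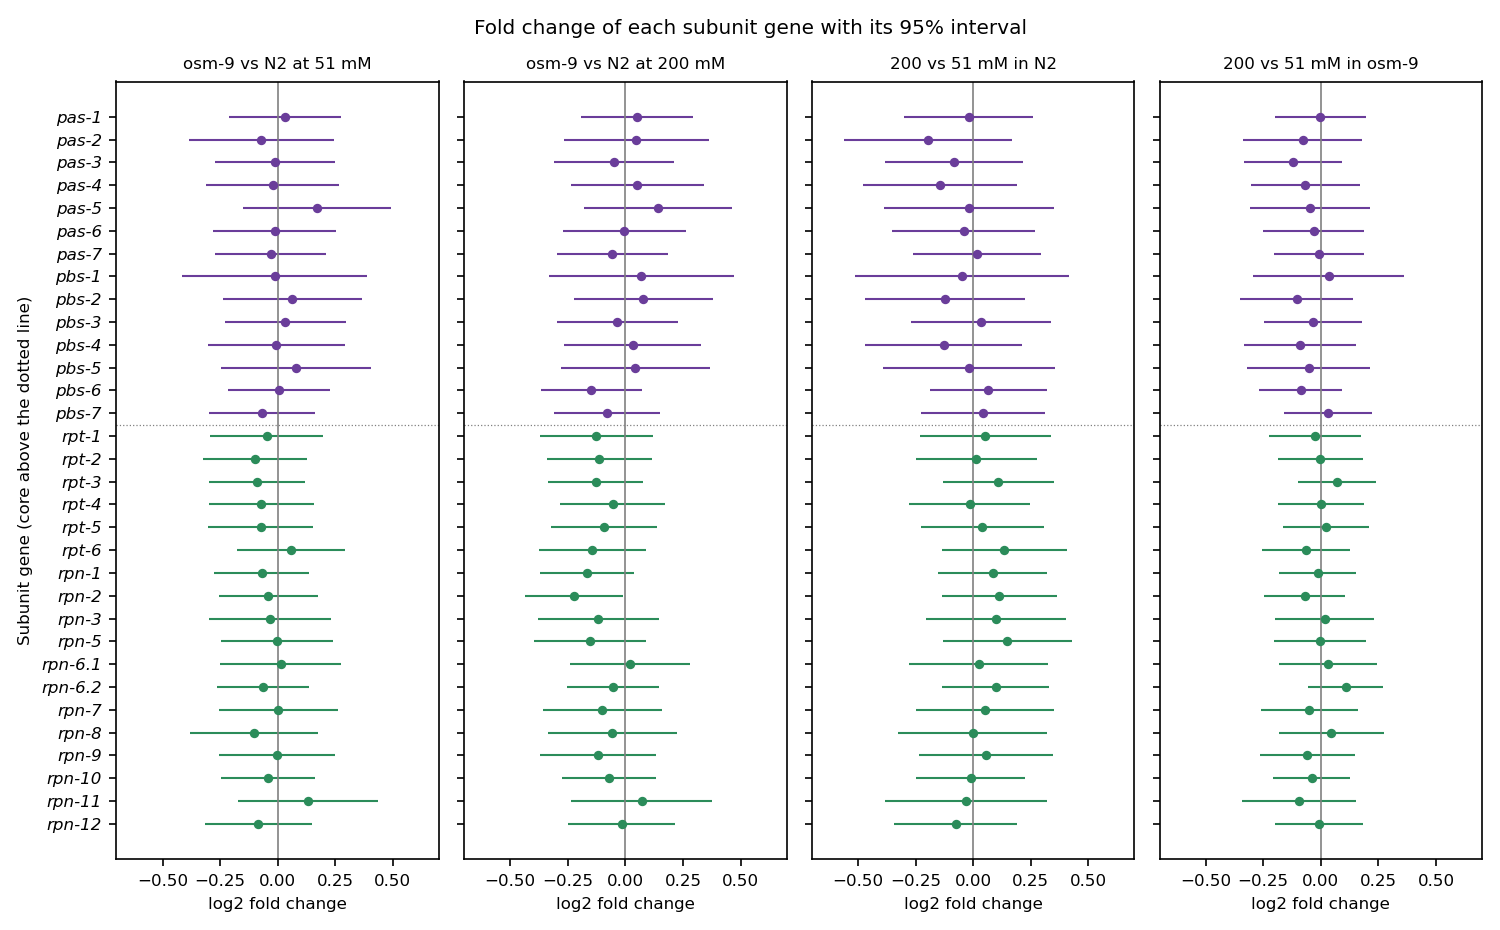
Log2 fold change of each subunit gene (points) with its 95% interval (lines) in the 4 comparisons of 2 groups, with core genes in purple above the dotted line and regulatory particle genes in green below it. Only the interval of *rpn-2* in the strain comparison at 200 mM lies wholly on 1 side of 0.

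The genes also moved little in size, with a median absolute log2 fold change of 0.045 and 0.071 in the strain comparisons at 51 and 200 mM, where all tested loci had 0.350 and 0.295. In the salt comparisons the values were 0.053 in N2 and 0.042 in the mutant, against 0.180 and 0.117 over all loci. The proteasome genes are well counted and vary little between replicates, and loci of equal level were not compared. Their pooled replicate SD had a median of 0.111 on the log2 scale, against 0.232 over all loci, and it was 0.136 for the core and 0.0956 for the regulatory particle. Counting error alone gives 0.016 to 0.036 for genes with these counts, so the measured spread was larger than counting error for all 32 genes. The largest replicate SDs were those of *pbs-1* (0.229), *pbs-5* (0.173), *pas-5* (0.167) and *pas-2* (0.165), and the smallest those of the *rpn-6.2* locus (0.0590) and *rpn-10* (0.0643).

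The balance of the particles was described by the ratio of summed core CPM to summed regulatory CPM in each library. It was 0.719 and 0.628 in N2 at 51 mM, 0.610 and 0.644 in N2 at 200 mM, 0.654, 0.702, 0.691 and 0.743 in the mutant at 51 mM, and 0.652, 0.680, 0.685 and 0.701 in the mutant at 200 mM. The extremes differed by 1.22-fold. At 200 mM the 4 mutant ratios were all above both N2 ratios, with a gap of less than 0.01 between the closest libraries. The mean log2 ratio was 0.12 higher in the mutant than in N2 at 200 mM and 0.053 higher at 51 mM. It was 0.10 lower at 200 than at 51 mM in N2 and 0.037 lower in the mutant, beside a replicate SD of 0.0749. The signs at 51 mM and the size in N2 rested on single N2 libraries. Without replicate 1 or replicate 2 of N2 at 51 mM, the strain difference there was 0.150 or -0.044 and the salt difference in N2 was -0.0033 or -0.20. Between same-numbered libraries, the salt differences were -0.0040, -0.046, -0.013 and -0.085 in the mutant but -0.24 and 0.036 in N2. The strain differences were -0.14 and 0.16 at 51 mM and 0.097 and 0.079 at 200 mM. The ratio was given no test, because the members were chosen as a group with earlier results known.

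**Figure D4:**
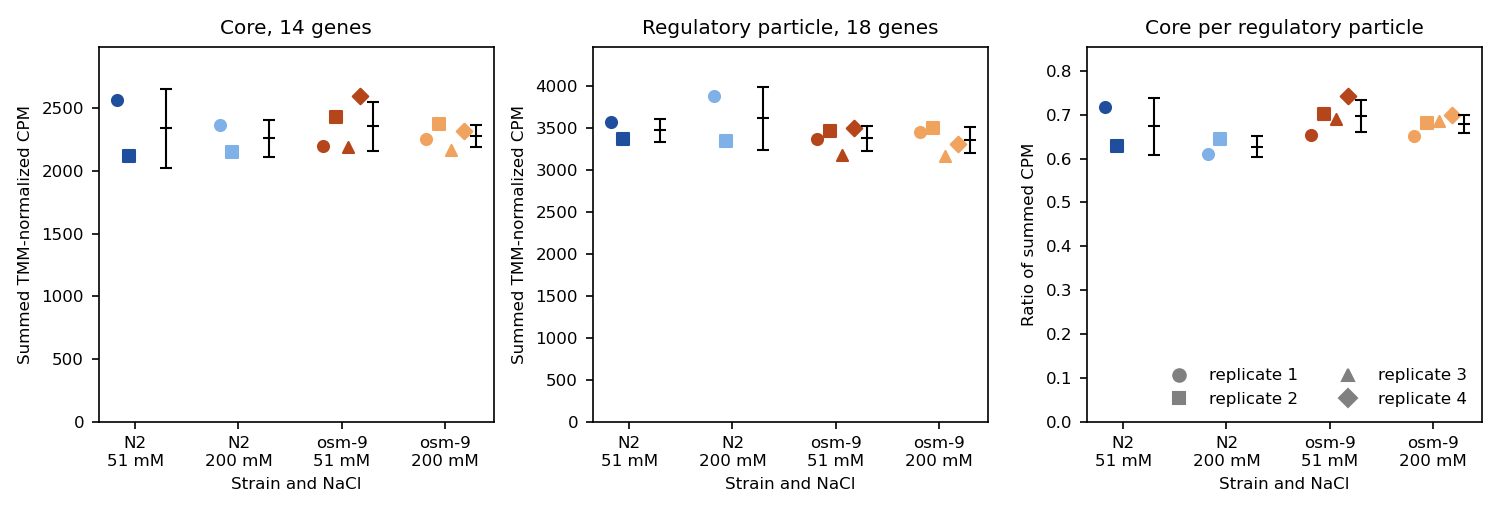
Summed TMM-normalized CPM of the 14 core genes (left) and of the 18 regulatory particle genes (middle), and their ratio (right), in each library. Symbols give the replicate number, and black lines the mean and SD of a group (n = 2 for N2 and n = 4 for *osm-9*). The ratio runs from 0.610 to 0.743, and N2 at 200 mM lies below both mutant groups, while the other groups overlap.

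Differences between libraries of 1 group were shared by most subunit genes. In N2 at 51 mM, replicate 1 was above replicate 2 in 31 of 32 genes, with the *rpn-6.2* locus as the exception, while over all tested loci it was the higher in 49.0%. In N2 at 200 mM, replicate 1 was above replicate 2 in 29 of 32 genes, against 44.8% of loci. Replicate 3 of the mutant was the lowest of 4 in 20 genes at 51 mM and in 22 genes at 200 mM and the highest in 0, while over all loci it was lowest in 23.6% and 31.97%. In N2 the summed level of 12 oocyte genes moved with this, 4433 CPM in replicate 1 against 2623 in replicate 2 at 51 mM and 4850 against 2737 at 200 mM, and it was lowest in replicate 3 of the mutant, with 1649 CPM at 51 mM and 1711 at 200 mM. At both concentrations the sum of the yolk genes was also higher in replicate 1 of N2 and lowest in replicate 3 of the mutant. In the mutant at 51 mM, replicate 4 had the highest oocyte sum (4454 CPM) and was the highest in 17 subunit genes. Replicate 1 of that group had 4170 CPM, but it was the highest in 3 subunit genes and the lowest in 9. Replicate 2 was the highest in 12 subunit genes at 51 mM and 16 at 200 mM, while its oocyte genes summed to 2877 and 3594 CPM, below the 4170 to 4454 of replicates 1 and 4. All 12 oocyte markers were detected, 0 of them were called in any comparison, and their part in the proteasome values was not tested.

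The exceptions in N2 at 200 mM were exactly *pbs-1*, *pbs-2* and *pbs-5*, the genes of the catalytic sites. Their levels were 113, 110 and 138 CPM in replicate 1 and 131, 122 and 157 CPM in replicate 2, while *pas-2* for example was at 200.4 and 169 CPM. Over the 14 pairs of libraries within a group, any pair of these 3 genes ranked the libraries alike in 11 to 13 pairs, with a median of 12. The catalytic genes shared the order of the other core genes in a median of 9 pairs and that of the regulatory genes in 8, whereas the other core genes shared the order of each other, and that of the regulatory genes, in a median of 11. The genes *pas-6* and *rpn-11* followed the catalytic genes in a mean of 12 of 14 pairs and *rpt-6* in 11. The catalytic sum per sum of the other core genes lay between 0.178 and 0.239, with its lowest values in replicate 1 of the mutant at 51 mM and of N2 at 200 mM, and all groups overlapped. This pattern was seen in the values first, the 14 pairs share libraries, and it was given no test.

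**Figure D5:**
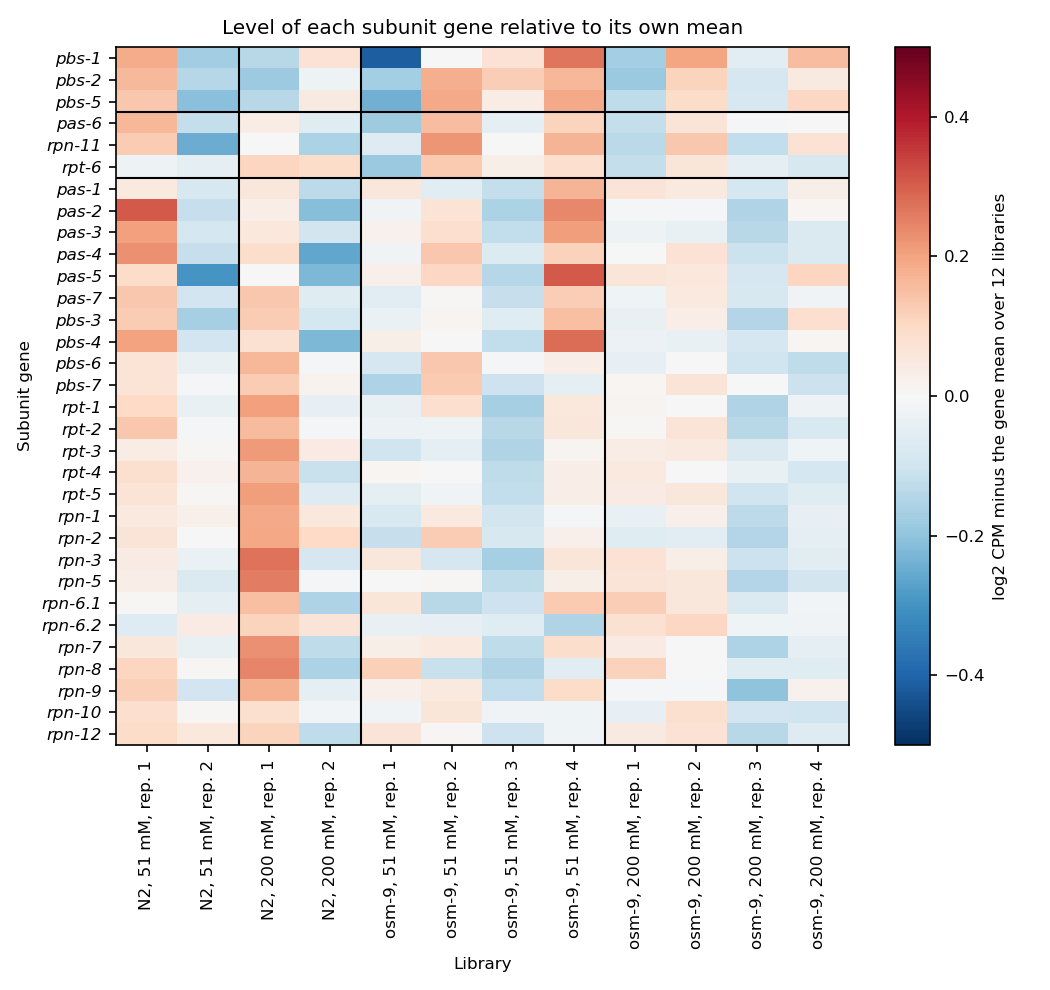
Level of each subunit gene in each library relative to its own mean over the 12 libraries (log2 CPM, red above and blue below the mean). The top block holds *pbs-1*, *pbs-2* and *pbs-5*, the next block *pas-6*, *rpn-11* and *rpt-6*, and the last block the other 26 genes. In N2 at 200 mM the catalytic genes are lower in replicate 1 than in replicate 2, while the last block is higher there.

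Of 23 related genes of the ubiquitin pathway, all tested, 0 were called in either direction in any comparison (edgeR), where 7.64% of loci were higher and 4.63% lower in the mutant at 51 mM and 4.13% and 2.3% at 200 mM. The nearest was *ubq-1*, which encodes polyubiquitin, with a log2 fold change of 0.39 (SE 0.12, adjusted p = 0.0626, edgeR) in the mutant against N2 at 51 mM. There the accessory protein gene *ecps-1* had 0.34 (SE 0.12, adjusted p = 0.0938). *uba-1*, the gene of the enzyme that activates ubiquitin, had 0.36 (SE 0.13, adjusted p = 0.0974). The gene of SKN-1, the transcription factor that raises proteasome genes when the proteasome is impaired, had 0.36 at 51 mM (SE 0.14, adjusted p = 0.109) and 0.35 at 200 mM (SE 0.14, adjusted p = 0.144). *png-1* and *ddi-1*, whose products process SKN-1, had 0.21 (SE 0.14) and 0.13 (SE 0.20) at 51 mM, and the locus of *ddi-1* holds a further gene, whose reads cannot be divided from it. *cdc-48.1* and *cdc-48.2*, which encode the ATPase that extracts ubiquitin-tagged proteins, had -0.030 and -0.040, and the deubiquitinase genes *usp-14* and *ubh-4* had -0.043 and -0.065. The proteasome activator gene *psme-3* had 0.023 at 51 mM and 0.20 at 200 mM (SE 0.11, adjusted p = 0.285, edgeR). In the salt comparisons at most 0.221% of loci were called in a direction. For salt *psme-3* had -0.38 in N2 (SE 0.12, adjusted p = 0.566, edgeR) and -0.19 in the mutant (SE 0.09, adjusted p = 0.887). In the strain comparisons the list's median was -0.030 at 51 mM and 0.014 at 200 mM.

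Calls in other complexes are given beside the shares of all loci. In the strain comparisons these were 7.64% higher and 4.63% lower at 51 mM, and 4.13% and 2.3% at 200 mM. The lists are too short for 0 or 1 calls to be told from these shares. Of the 6 genes of the COP9 signalosome, a complex whose subunits are related to those of the lid, 0 were called in any comparison, with medians of -0.11 and -0.024 in the strain comparisons at 51 and 200 mM. Of the 8 genes of the cytosolic chaperonin, a barrel that folds actin and tubulin, 1 was called, *cct-3*, lower in the mutant at 51 mM (log2 fold change -0.32, SE 0.09, adjusted p = 0.0413, edgeR). Its median was -0.11 and -0.13.

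The proteasome genes held these levels across libraries that differed widely in stage markers. Summed over 11 molting genes, the level was 167 to 192 CPM in N2 and 464 to 1147 CPM in the mutant at 51 mM, where 6 of 11 were called higher against 7.64% of loci, and 244 to 353 against 294 to 1000.4 CPM at 200 mM, where 2 of 11 were against 4.13%. The 6 yolk genes summed to 39506 to 44811 CPM in N2 and 9283 to 33510 CPM in the mutant at 51 mM, with 0 called. At 51 mM 2 of 7 germ cell genes and 2 of 31 tested sperm genes were called lower, against 4.63% of loci. At 200 mM 1 and 3 were, against 2.3%. The median log2 fold change of the sperm genes was -0.68 at 51 mM and -0.82 at 200 mM. Their sum at 51 mM was 2505 to 2660 CPM in N2 and 1158 to 2530 CPM in the mutant. Across the 12 libraries the molting sum varied 6.85-fold, the yolk sum 5.57-fold, the oocyte sum 2.94-fold and the sperm sum 2.38-fold. The germ cell sum varied less, from 1429 to 1889 CPM. The summed proteasome genes varied 1.17-fold. So small a range was not particular to the proteasome. The sum of the cytosolic chaperonin loci varied 1.18-fold and that of the related ubiquitin pathway loci 1.147-fold. These sums include reads of other genes. The locus of *cct-2* (mean 1104 CPM) also names *enol-1* and *mrpl-50*, and that of *ubq-2* (1149 CPM) also names *ZK1010.2*. The sum of the COP9 signalosome genes varied more, 1.48-fold. What part these markers have in single proteasome values was not tested.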

How the data were processed

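The deposited table, made by the authors, holds raw read counts for 41420 loci in 12 samples, without normalization. According to the study's methods and the submitters' processing notes, paired reads of poly(A) libraries were aligned to WS235 with TopHat 1.4.1 and assigned to Ensembl 71 genes with Cufflinks 2.0.1. Whether strand was used is not given in the sources used here. Samples were grouped by strain and NaCl from their labels. Libraries of a group were checked for copies over the 11462 to 12028 better-counted loci of each pair. They differed beyond counting noise in 43.9% to 74.0% of these loci. None was a copy of another in its group, and all were kept.

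Loci were filtered with filterByExpr (minimum count 10, minimum total 15), scaled by TMM and fitted in edgeR 4.0.16 (R 4.3.3) with 1 mean per group over all 12 samples. Quasi-likelihood tests were two-sided, and p was adjusted over 15403 loci by the Benjamini-Hochberg method, with calls at 0.05. The study's own tests were pairwise, in edgeR 3.2.4. The scripts were tested on simulated counts. Intervals are 95% limits of the log2 fold change, gene by gene. Alternatives included DESeq2 1.42.0, RLE factors, filters, joined loci and leaving out libraries. Positions and exon lengths come from Ensembl 115 (WBcel235). The sequences of the genes were not used here.

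All 32 members are named. Values per library are given for *pbs-1*, *pbs-2*, *pbs-5*, *rpn-6.1*, *rpn-6.2*, *rpn-10* and *rpn-11*, and for the 2 highest and 2 lowest fold changes of each comparison of 2 groups. The members and lists were chosen with earlier results of these data known. Labels share replicate numbers. In the mutant, same-numbered libraries at 51 and 200 mM deviated together, with correlations across loci of 0.774, 0.614, 0.867 and 0.689. Each was above that with any other number, so differences between same-numbered libraries are also given there. The main test of salt in the mutant did not use these pairs. Replicate number entered a test only in the alternative with it as a block. In comparisons with N2 only 2 numbers are shared, and the main tests used no pairs. Differences between same-numbered libraries are given for them as a description only. Between the strains, same-numbered libraries did not always correlate above other numbers.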

Additional observations from a re-analysis of the deposited data

Results flagged for a closer look

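Within groups of 4 libraries, a library was singled out where its gap to the nearest other exceeded Dixon's 95% limit for the share of the group's range, which chance alone does in about 1 of 20 groups. Of the groups examined, 4 exceeded the limit among 72. In the mutant at 200 mM, replicate 3 was low for *pas-2* (176.5 CPM, others 194.6 to 197.0), *rpn-2* (254.9 CPM, others 271.1 to 272.8) and *rpn-9* (150.7 CPM, others 171.7 to 175.9). In the mutant at 51 mM, replicate 2 was high for *rpn-10* (140.9 CPM, others 133.2 to 133.7). The 4 cases were not tested further.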

How the results depend on the processing

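In 0 of the alternatives was any of the 32 genes called after adjustment, in 20 alternatives for each comparison of 2 groups and 19 for the strain difference in the response. The smallest adjusted p over these alternatives was 0.251 and 0.0729 for the strain comparisons at 51 and 200 mM, 0.678 and 0.698 for salt in N2 and in the mutant, and 0.965 for the difference between the responses. With the unadjusted threshold, 1 gene was lower in the strain comparison at 200 mM. With replicate number as a block (replicate block), 0 genes were called higher and 0 lower in every comparison, so the block changed no call. In comparisons with N2, same-numbered libraries correlated across loci by 0.392 and 0.391 at 51 mM and 0.549 and 0.201 at 200 mM, not always above other numbers. Leaving out 1 library at a time moved the core to regulatory log2 ratio difference between -0.0444 and 0.150 for the strains at 51 mM, and between -0.198 and -0.0033 for salt in N2, both set by the N2 libraries at 51 mM. The same N2 libraries moved the median of the 32 genes at 51 mM between -0.161 and 0.0523, and those at 200 mM moved the strain median there between -0.201 and 0.0320. 2 alternatives were chosen after seeing the data, namely leaving out replicates 1 and 4 of the mutant and taking the ratio within replicate numbers, which gave 0.012, 0.088, -0.10 and -0.037 for the 4 comparisons in the order above. Depth was not the limit, since every locus had at least 1624 counts in each library. With 2 N2 libraries a group, the 95% intervals of single genes reached from 0.678-fold to 1.41-fold in the comparisons of 2 groups.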
